A study of Mus musculus with 24 samples.

Results

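The genes of excitation-contraction coupling and of the muscle calcium store make up 10 of the 18193 genes named on a pair of array designs, and were followed through 22 of 45265 probe sets. They are the probe sets whose annotated symbol is Ryr1, Cacna1s, Cacng1, Atp2a1, Atp2a2, Casq1, Casq2, Jph1, Trdn or Pvalb, and the probe sets of 1 gene were kept apart. The MA design holds 18 of them, covering all 10 genes, and the MB design holds 4, covering Ryr1, Atp2a2 and Jph1. The signal filter, a signal of at least 30 in 3 or more of the 12 arrays of a design, left 12 of these probe sets on MA and 3 on MB for testing. All 6 Trdn probe sets and the MB probe set 1443551_at of Atp2a2 stayed below it.

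The RNA came from C2C12, a mouse myoblast line whose cells leave the cycle and fuse into myotubes in differentiation medium. There were 4 groups on each design, with 3 arrays in each. These were p68 shRNA cells in differentiation medium (DM), empty-vector cells in DM, p68 shRNA cells in growth medium (GM) and empty-vector cells in GM. All groups had been transduced with the pSuperR vector, empty or carrying a short hairpin RNA against p68, the RNA helicase encoded by Ddx5. The series states interference with both p68 and its relative p72 as its aim, whereas the sample labels name p68 alone. The labels do not give the time in DM, nor do they say that replicates came from different cultures, so the p-values reflect array-to-array spread that may be technical.

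In skeletal muscle, an action potential runs down the T-tubule and is sensed there by the dihydropyridine receptor, a voltage-gated calcium channel. That receptor is coupled to the ryanodine receptor of the sarcoplasmic reticulum, which lets stored calcium out to start contraction. Calcium pumps then return the ion to the store, where calsequestrins bind it, while junctophilin and triadin belong to the junction between the membranes and parvalbumin binds calcium in the cytosol.

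Promoter sequences from RefSeq (GRCm38.p6) could be matched to 6 of the 10 genes, in 7 windows of 250 bases that end just before a start given in the promoter table. Against the gene's own bounds in RefSeq, the window runs 5 bases into Cacna1s, 28 into Ryr1 and 30 into Atp2a1, and the second Pvalb window lies inside the gene. The 4 printed here belong to a pump, the voltage sensor and the release channel, whose signals fell with the shRNA in DM, and to the cytosolic calcium buffer, whose signal rose. They are read 5′ to 3′ on the strand of the gene, and capitals mark CAGCTG, an E-box of the kind that myogenic bHLH factors such as MyoD bind. The windows are chr7:126463074-126463323 (minus strand) for Atp2a1, chr1:136052561-136052810 (plus strand) for Cacna1s, chr7:29125152-29125401 (minus strand) for Ryr1 and chr15:78206401-78206650 (minus strand) for the first of 2 Pvalb windows.
Atp2a1: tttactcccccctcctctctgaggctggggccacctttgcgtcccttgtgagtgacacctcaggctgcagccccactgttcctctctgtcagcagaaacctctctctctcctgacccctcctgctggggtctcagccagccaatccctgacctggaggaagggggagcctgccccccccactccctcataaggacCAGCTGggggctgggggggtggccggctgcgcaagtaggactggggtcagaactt
Cacna1s: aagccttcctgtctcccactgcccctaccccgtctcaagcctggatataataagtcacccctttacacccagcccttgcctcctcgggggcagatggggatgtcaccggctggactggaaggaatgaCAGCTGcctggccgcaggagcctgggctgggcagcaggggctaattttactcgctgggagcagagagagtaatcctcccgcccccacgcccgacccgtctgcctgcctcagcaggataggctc
Ryr1: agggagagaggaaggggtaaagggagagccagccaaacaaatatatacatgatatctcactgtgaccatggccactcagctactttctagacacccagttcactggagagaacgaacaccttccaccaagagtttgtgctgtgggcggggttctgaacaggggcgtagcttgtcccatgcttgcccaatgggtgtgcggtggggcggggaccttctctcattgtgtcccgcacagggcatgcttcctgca
Pvalb: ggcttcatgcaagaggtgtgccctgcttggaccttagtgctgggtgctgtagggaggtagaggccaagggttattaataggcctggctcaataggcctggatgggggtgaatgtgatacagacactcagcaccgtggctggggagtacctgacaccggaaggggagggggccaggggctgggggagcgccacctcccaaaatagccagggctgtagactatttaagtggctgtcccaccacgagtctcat

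CAGCTG, which reads the same on both strands, occurred 1 time in the window of Atp2a1, with 49 bases between it and the end of the window. It occurred 1 time in that of Cacna1s, at 117 bases, and 1 time in that of Casq1, at 189 bases. The windows of Casq2, Ryr1 and Pvalb held none, and of all 32851 promoter windows of this length 13.0% held it. The wider E-box CANNTG, of which CAGCTG is one form, occurred in 66.2% of all windows. It occurred 2 times each in the windows of Cacna1s, Casq1 and Casq2, and 1 time each in that of Atp2a1 and the second of Pvalb. The windows of Ryr1 and the first of Pvalb had no CANNTG. The MEF2 motif, searched on both strands, occurred in 0.51% of all windows and in none of the members' windows. A match of letters is a description of the window only.

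The 12 arrays of a design were on 1 scale as deposited, and the number of arrays limits the precision. The median residual SD on the log2 scale was 0.523 on MB, against 0.214 on MA. The array with the lowest mean correlation with its own group was DM vector replicate 3 on MA (0.951) and DM vector replicate 2 on MB (0.825). Ddx5 itself, at its tested probe set with the highest mean log2 signal (1419653_a_at, of 6 tested), had signals of 373, 302.5 and 302.5 in DM p68 shRNA cells, against 673.5, 541 and 408 in DM vector cells. In GM, its signals were 351, 388 and 377 in p68 shRNA cells and 483, 420 and 489 in vector cells. The shRNA difference was a log2 change of -0.68 ± 0.16 in DM (SE, limma adjusted p = 0.00677) and -0.31 in GM, which did not pass (adjusted p = 0.287). None of the other 5 Ddx5 probe sets passed in DM, where their changes ran from -0.48 to 0.01 (adjusted p = 0.0869 to 0.999), or in GM, where they ran from -0.49 to -0.07 (adjusted p = 0.135 to 0.875). The summed signal of 7 myotube markers (among them Myog, Ckm and Myh3) was 25465 to 28975 in DM p68 shRNA cells, 30749 to 50408 in DM vector cells, 1701 to 1787 in GM p68 shRNA cells and 2348 to 2581 in GM vector cells. That of 5 markers of cycling cells was 1641 to 1793, 593 to 692, 3069 to 3445 and 3940 to 4021 in the same groups, so DM p68 shRNA cells lay above DM vector cells. Both marker sets thus differed between the constructs. In DM the myotube sum was lower and the cycling sum higher with the shRNA, whereas in GM both sums were lower. Their part in the shRNA results below was not tested. In such bulk RNA, a smaller share of cells that made a transcript and less of it per cell cannot be told apart.

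Most tested members had a higher signal in DM than in GM, whichever construct the cells carried. A probe set was called where its limma p-value, adjusted by the Benjamini-Hochberg method over all probe sets of the design and comparison, was under 0.05, and log2 changes are of signal + 15. In p68 shRNA cells, 9 of the 12 tested MA probe sets rose and 1 fell in DM relative to GM, where 16.3% of all 14367 tested probe sets rose and 17.5% fell. The members' median log2 change was 2.41, and that of all tested probe sets was -0.003. In vector cells, 9 rose and 1 fell as well, against 23.9% and 25.4% of all tested probe sets, with medians of 3.26 for the members and 0.008 for all. Ryr1, Cacna1s and Casq2 reached a signal of 30 on MA in the 6 DM arrays alone and so entered the test through DM, which is why these counts are a description of the members that passed the filter. On MB, 1 of 3 tested members rose in p68 shRNA cells (2.27% of 19303 tested probe sets rose) and 2 of 3 in vector cells (4.21%).

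With the shRNA, most of the voltage sensor, release channel and pump probe sets were lower in DM, and parvalbumin was higher. Of the 12 MA members, 6 fell and 1 rose in DM p68 shRNA cells relative to DM vector cells, where 6.24% of all tested probe sets fell and 10.7% rose. The median log2 change was -0.56 over the members and 0.05 over all tested probe sets. On MB, 1 of 3 fell (0.389% of all fell). In GM, 1 of 12 MA members rose and none fell (3.99% and 2.57% of all), 6 of the 12 having an unadjusted limma p under 0.05 (20.5% of all). On MB none of 3 passed (0.275% of all passed in either direction), with 1 at an unadjusted limma p under 0.05 (7.22% of all). The shRNA and medium comparisons share arrays: the DM groups enter both, and so do the GM groups.

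**Figure D1:**
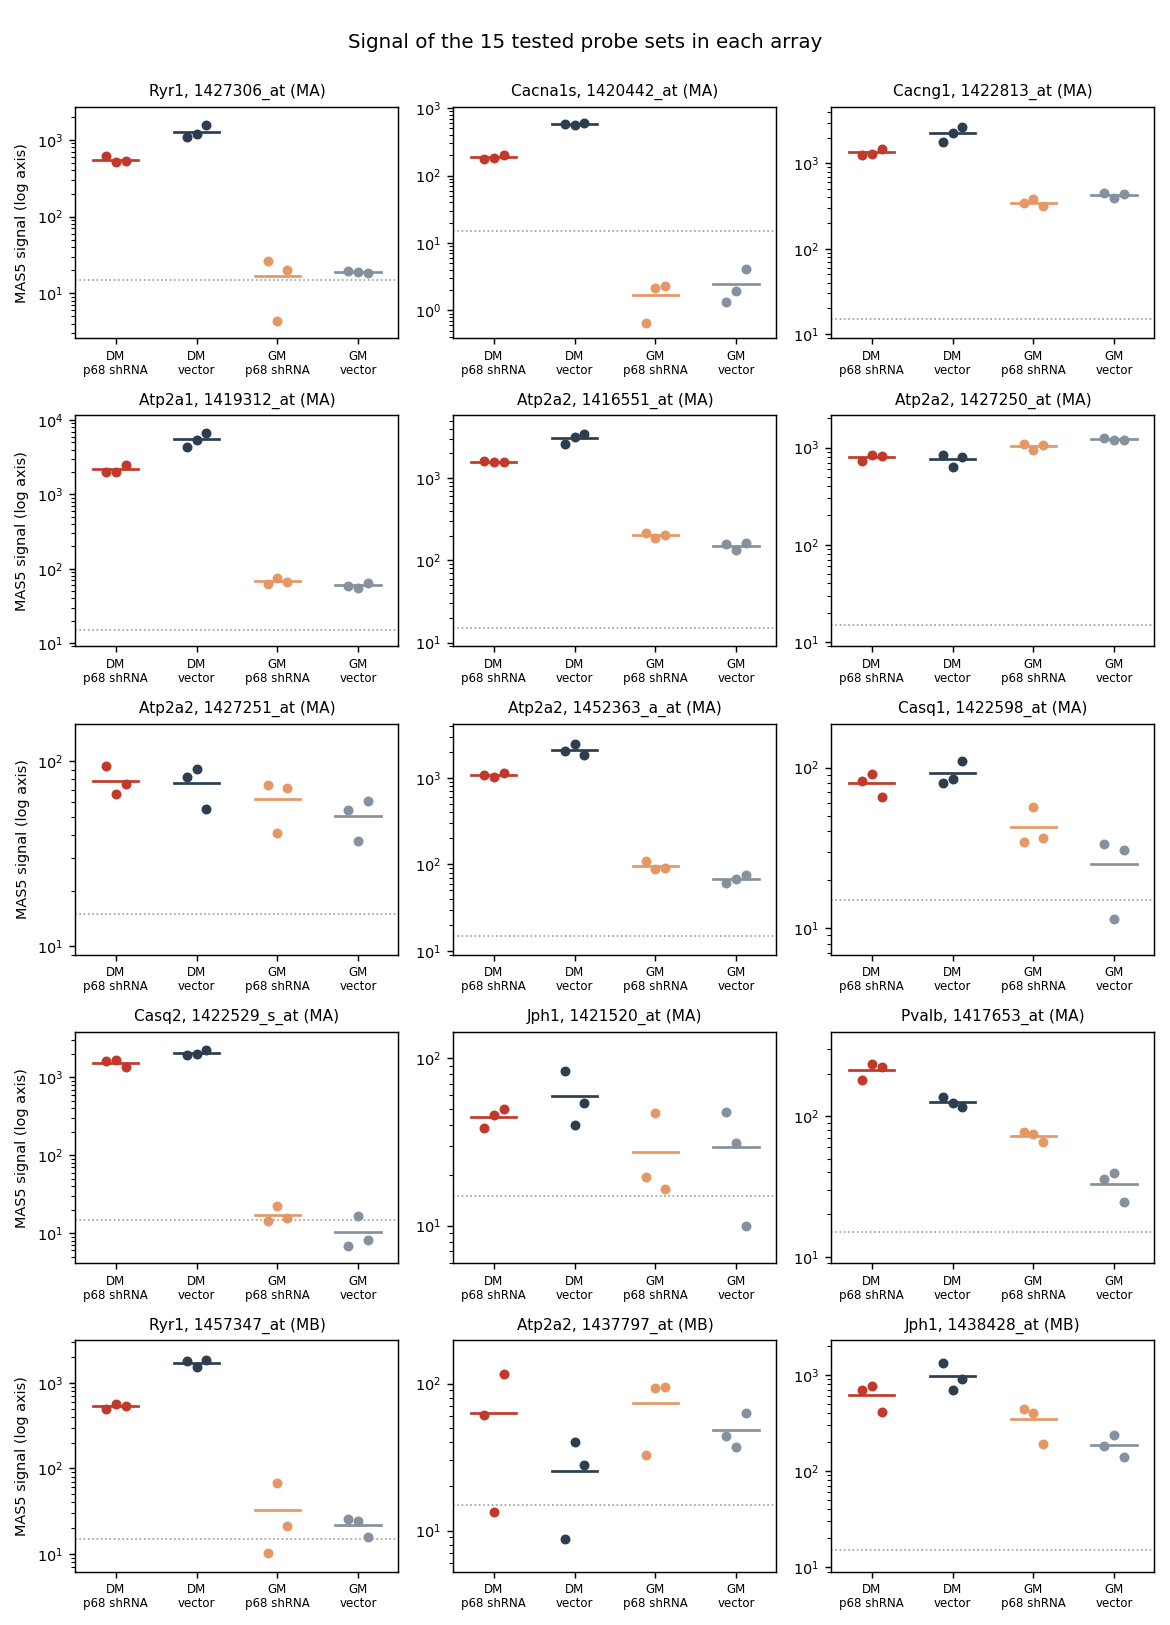
Signals of the 15 tested member probe sets in each array. Each panel shows 1 probe set with its gene and design, the vertical axis is the deposited signal on a log scale, points are arrays (3 per group), bars are group means, and the dotted line marks 15, the number added before taking log2. For Atp2a1, DM p68 shRNA arrays sit at 2013 to 2457, under the DM vector arrays at 4355 to 6787 and above all GM arrays.

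Cacna1s, the pore and voltage sensor subunit of the dihydropyridine receptor, was near 0 in GM and well measured in DM. At 1420442_at its signals were 174.9, 179.7 and 203.8 in DM p68 shRNA cells, against 591, 558 and 610.2 in DM vector cells. In GM they were 0.6, 2.1 and 2.3 in p68 shRNA cells and 1.3, 1.9 and 4.1 in vector cells. All DM p68 shRNA arrays lay under all DM vector arrays, and the GM groups overlapped. Between DM and GM the change was 3.59 ± 0.14 in p68 shRNA cells (SE, adjusted p = 1.16e-10) and 5.11 ± 0.14 in vector cells (adjusted p = 1.42e-12). Since its GM signals were far under the 15 that was added, both values understate the change. In DM it fell by 1.58 with the shRNA (95% interval -1.88 to -1.28, adjusted p = 4.19e-06). In GM the difference was -0.06 (adjusted p = 0.869). The medium change in p68 shRNA cells minus that in vector cells was -1.52 ± 0.20 (the interaction of medium and shRNA, adjusted p = 0.000259). With GM signals far under the added 15 in both constructs, this value mostly restates the DM difference. It cannot show on its own that the medium change differed.

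Cacng1, the gamma subunit of the same channel, was the member of the voltage sensor that was already well measured in GM. At 1422813_at it had 1262, 1279.7 and 1480.5 in DM p68 shRNA cells, against 1777, 2249 and 2683 in DM vector cells. In GM it had 342, 377 and 314 in p68 shRNA cells, against 453.5, 396 and 436 in vector cells. The p68 shRNA arrays lay below the vector arrays in both media, with no overlap. Its DM over GM change was 1.92 ± 0.14 in p68 shRNA cells (adjusted p = 8.19e-08) and 2.33 ± 0.14 in vector cells (adjusted p = 4e-09). With the shRNA it fell by 0.72 in DM (adjusted p = 0.00236), and in GM the difference was -0.31, which did not pass (adjusted p = 0.226). The interaction of -0.41 did not pass either (adjusted p = 0.224), except without DM vector replicate 1, where it was -0.57 (adjusted p = 0.0466).

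Ryr1, the release channel of the sarcoplasmic reticulum, was measured on both designs. At 1427306_at (MA) its signals were 618.04, 513 and 535 in DM p68 shRNA cells, against 1080.5, 1189 and 1584 in DM vector cells. In GM they were 26.5, 4.3 and 19.9 in p68 shRNA cells and 19.5, 18.8 and 18.3 in vector cells. At 1457347_at (MB) they were 494, 573 and 543 in DM p68 shRNA cells, against 1791, 1518 and 1847 in DM vector cells, and in GM 10.4, 67.3 and 21.0 in p68 shRNA cells and 25.9, 24.6 and 15.6 in vector cells. At both probe sets the DM p68 shRNA arrays lay below the DM vector arrays and well above GM, where the constructs overlapped.

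The DM over GM change of Ryr1 on MA was 4.23 ± 0.23 in p68 shRNA cells (adjusted p = 3.24e-09) and 5.24 ± 0.23 in vector cells (adjusted p = 1.44e-10). On MB it was 3.71 ± 0.35 in p68 shRNA cells (adjusted p = 7.46e-07) and 5.56 ± 0.35 in vector cells (adjusted p = 1.71e-09). With the shRNA in DM, Ryr1 fell by 1.17 on MA (95% interval -1.66 to -0.69, adjusted p = 0.00236) and by 1.65 on MB (adjusted p = 0.0217). The MB call was lost when any of the 6 DM arrays was left out, with adjusted p = 0.0544 to 0.102, although the change stayed between -1.74 and -1.59. It was also lost with 5 added to the signal (adjusted p = 0.0751) or with no mean-variance trend (adjusted p = 0.126). In GM the difference was -0.16 on MA (adjusted p = 0.775) and 0.20 on MB (adjusted p = 0.973). The interaction did not pass on MA (-1.02 ± 0.32, adjusted p = 0.0596) or MB (-1.85 ± 0.49, adjusted p = 0.151). It passed on MA without GM p68 shRNA replicate 3 (-1.34, adjusted p = 0.003) or DM vector replicate 1 (-1.13, adjusted p = 0.0477), and on MB without GM p68 shRNA replicate 1 (-2.22, adjusted p = 0.0335). With 50 added to the signal it passed on both, at -1.07 on MA (adjusted p = 0.00444) and -1.74 on MB (adjusted p = 0.0212). Apart from 67.3 in GM p68 shRNA replicate 2 on MB, the GM signals were under 50. With 50 added, the value thus mostly restates the DM difference. These calls cannot show on their own that the medium change differed.

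Of the junction genes, Jph1, which ties the sarcoplasmic reticulum to the T-tubule membrane, gave different readings on the designs. At 1421520_at (MA) its signals were low throughout, at 38.2, 45.6 and 49.8 in DM p68 shRNA cells, 84.2, 39.8 and 53.6 in DM vector cells, 19.5, 47.0 and 16.4 in GM p68 shRNA cells and 47.7, 31.2 and 9.9 in GM vector cells. The groups overlapped and no comparison passed on MA. Between DM and GM the change was 0.55 in p68 shRNA cells (adjusted p = 0.231) and 0.79 ± 0.33 in vector cells (adjusted p = 0.0621). The vector value passed without DM vector replicate 2 (0.99, adjusted p = 0.0431), GM vector replicate 1 (1.09, adjusted p = 0.0201) or GM p68 shRNA replicate 3 (0.79, adjusted p = 0.0445).

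At 1438428_at (MB) Jph1 had 695, 768 and 409 in DM p68 shRNA cells, against 1346, 699 and 913 in DM vector cells. In GM it had 447, 399.7 and 191.0 in p68 shRNA cells and 183, 239 and 141 in vector cells. The DM and GM groups were apart in vector cells and overlapped in p68 shRNA cells, and the constructs overlapped in both media. Its DM over GM change was 0.86 ± 0.32 in p68 shRNA cells, which did not pass (adjusted p = 0.167), and 2.28 ± 0.32 in vector cells, which did (adjusted p = 6.11e-05). The difference between these changes, -1.42 ± 0.45, did not pass (adjusted p = 0.287). The shRNA difference was -0.65 in DM (95% interval -1.31 to 0.02, adjusted p = 0.496) and 0.78 in GM (adjusted p = 0.566).

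Trdn, whose product triadin links the release channel to calsequestrin, could not be tested. Its highest signal was 45.6, at 1426143_at in DM vector replicate 1, where the other DM vector arrays had 8.1 and 5.5 and the DM p68 shRNA arrays had 14.1, 6.2 and 6.3. At 1451801_at the signals were 12.8, 11.96 and 10.9 in DM p68 shRNA cells, 20.3, 21.9 and 3.9 in DM vector cells, 1.0, 0.9 and 3.8 in GM p68 shRNA cells and 0.7, 1.1 and 7.2 in GM vector cells. Signals of this size lie around the added 15. With no filter on low signal, 1451801_at had a DM over GM change of 0.71 ± 0.23 in vector cells (adjusted p = 0.027) and 1426144_x_at one of 0.80 ± 0.27 (adjusted p = 0.0348), and the other 4 did not pass there. In p68 shRNA cells no Trdn probe set passed. The change at 1451801_at was of similar size there, at 0.67 (adjusted p = 0.0516), and that at 1426144_x_at was 0.26 (adjusted p = 0.594).

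Atp2a1, the fast-twitch calcium pump SERCA1, is the pump that returns calcium to the store in fast fibres. At 1419312_at it had 2025, 2013 and 2457 in DM p68 shRNA cells, against 4355, 5320.4 and 6787 in DM vector cells. In GM it had 61.4, 76.2 and 66.9 in p68 shRNA cells and 58.8, 55.7 and 65.2 in vector cells. The mean in DM was 2165 ± 253 in p68 shRNA cells and 5487 ± 1224 in vector cells (SD, n = 3 each), with no overlap, whereas the GM groups overlapped. Its DM over GM change was 4.71 ± 0.15 in p68 shRNA cells (adjusted p = 1.07e-11) and 6.18 ± 0.15 in vector cells (adjusted p = 3.75e-13). With the shRNA it fell by 1.32 in DM (adjusted p = 3.09e-05), and in GM the difference was 0.15 (adjusted p = 0.645). The interaction was -1.47 ± 0.21 (adjusted p = 0.000558).

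Atp2a2 encodes SERCA2, whose transcript is spliced into a muscle form, SERCA2a, and a widely expressed form, SERCA2b. Its 4 MA probe sets behaved in 3 ways, and which transcript form each one reads was not analysed here, since the probe sequences were not used. At 1416551_at the signals were 1633, 1585 and 1563 in DM p68 shRNA cells, against 2619, 3133 and 3419 in DM vector cells, and in GM 213, 185.5 and 205 in p68 shRNA cells, against 159.2, 132 and 164 in vector cells. At 1452363_a_at they were 1082.5, 1034 and 1151 in DM p68 shRNA cells, against 2064, 2479 and 1824 in DM vector cells, and in GM 108.5, 88.3 and 89.9 in p68 shRNA cells, against 60.2, 67.3 and 75.9 in vector cells. At both, the p68 shRNA arrays lay below the vector arrays in DM and above them in GM, with no overlap in either medium.

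The DM over GM change at 1416551_at was 2.90 ± 0.12 in p68 shRNA cells (adjusted p = 1.81e-10) and 4.20 ± 0.12 in vector cells (adjusted p = 1.8e-12). At 1452363_a_at it was 3.32 ± 0.13 in p68 shRNA cells (adjusted p = 1.21e-10) and 4.68 ± 0.13 in vector cells (adjusted p = 1.56e-12). With the shRNA in DM, these fell by 0.93 (adjusted p = 9.5e-05) and by 0.94 (adjusted p = 0.000183). In GM they were 0.38 and 0.42 higher, short of the threshold (adjusted p = 0.0751 and 0.0734). Without DM vector replicate 3 these GM differences passed (adjusted p = 0.0406 and 0.0369), and without DM vector replicate 1 the one at 1416551_at did (adjusted p = 0.0415). The interactions were -1.30 ± 0.17 (adjusted p = 0.000232) and -1.36 ± 0.18 (adjusted p = 0.000374).

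At 1427250_at Atp2a2 moved the other way with the medium. It had 732.5, 839.7 and 825 in DM p68 shRNA cells and 831, 627 and 803 in DM vector cells, against 1087, 950.3 and 1067 in GM p68 shRNA cells and 1258.5, 1189 and 1185 in GM vector cells. Every DM array lay under every GM array. The DM over GM change was -0.37 ± 0.12 in p68 shRNA cells (adjusted p = 0.0242) and -0.68 ± 0.12 in vector cells (adjusted p = 0.000192). The p68 shRNA value lost its call without DM p68 shRNA replicate 1 (adjusted p = 0.0986), GM p68 shRNA replicate 2 (adjusted p = 0.0842) or GM p68 shRNA replicate 4 (adjusted p = 0.0742). That call was also lost with the replicate number as a block (adjusted p = 0.055). The shRNA difference was 0.09 in DM (95% interval -0.16 to 0.34, adjusted p = 0.662) and -0.22 in GM, where the groups did not overlap but the call was not reached (adjusted p = 0.302).

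The remaining Atp2a2 probe sets were weak. At 1427251_at (MA) the signals were 66.3 to 93.5 in DM p68 shRNA cells, 55.2 to 90.1 in DM vector cells, 41.0 to 74.5 in GM p68 shRNA cells and 37.2 to 60.7 in GM vector cells, and the groups overlapped in every comparison. None of its changes passed, although the DM over GM change in vector cells (0.47, adjusted p = 0.098) did so without DM vector replicate 3 (0.64, adjusted p = 0.0255). That change also passed with the replicate number as a block (0.51, adjusted p = 0.0453). At 1437797_at (MB) the 12 signals ran between 8.8 and 115.6 and none of the comparisons passed. The untested MB probe set 1443551_at ran between 1.1 and 43.2.

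The unequal behaviour of the Atp2a2 probe sets was also read within arrays, as the log2 ratio of each to 1427250_at, the one with the highest mean log2 signal. For 1416551_at the ratio was 1.14, 0.90 and 0.91 in DM p68 shRNA arrays and 1.64, 2.29 and 2.07 in DM vector arrays, against -2.27, -2.27 and -2.30 in GM p68 shRNA arrays and -2.87, -3.03 and -2.74 in GM vector arrays. The DM and GM arrays did not overlap, and in GM the p68 shRNA arrays had the higher ratio whereas in DM the vector arrays had it. The DM minus GM difference was 4.07 averaged over the constructs (3.26 in p68 shRNA cells and 4.88 in vector cells). It was 4.53 for 1452363_a_at (3.69 in p68 shRNA cells and 5.37 in vector cells) and 0.90 for 1427251_at (0.66 in p68 shRNA cells and 1.15 in vector cells). For 1427251_at, whose own change did not pass (0.29 in p68 shRNA cells and 0.47 in vector cells), the larger part of the 0.90 came from the fall of 1427250_at. These differences are a description, with no p, since they restate the medium changes given above.

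Averaged over the media, the p68 shRNA minus vector difference of these ratios was -0.21 for 1416551_at, -0.20 for 1452363_a_at and 0.20 for 1427251_at. The exact two-sided permutation p within medium was 0.48, 0.52 and 0.345 (0.52, 0.52 and 0.517 after Benjamini-Hochberg adjustment over 6 tests, of which the other 3 were those between the media). For the first 2 this average joins opposite values, -1.02 in DM and 0.60 in GM for 1416551_at and -1.03 in DM and 0.64 in GM for 1452363_a_at.

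**Figure D2:**
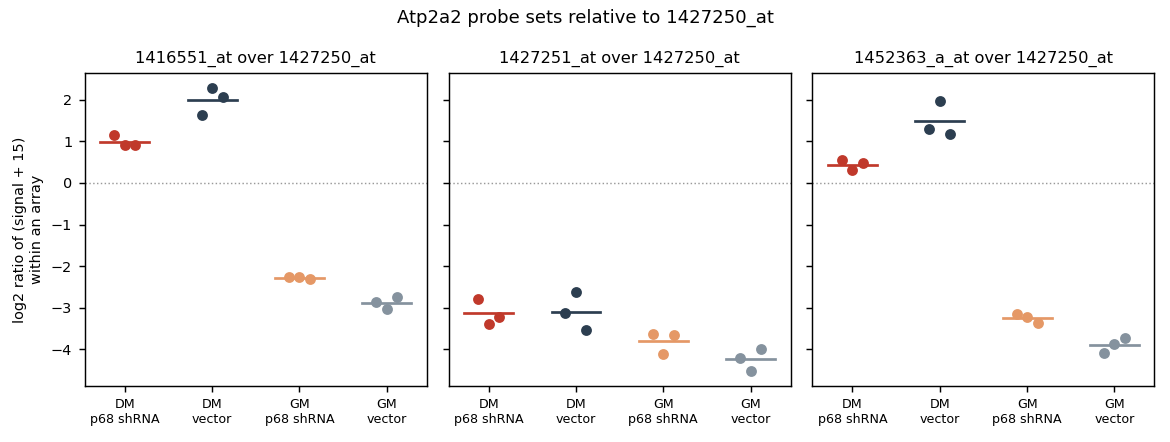
Log2 ratio of 3 Atp2a2 probe sets to 1427250_at within each MA array. Each panel is 1 probe set, the vertical axis is the log2 ratio of signal + 15, points are arrays (3 per group), bars are group means, and the dotted line marks a ratio of 0. For 1416551_at the ratio lies at 0.90 to 2.29 in DM arrays and at -3.03 to -2.27 in GM arrays.

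Casq1, the calsequestrin of fast skeletal muscle, was low in all groups. At 1422598_at it had 82.3, 91.8 and 65.3 in DM p68 shRNA cells and 80.1, 85.4 and 110.2 in DM vector cells, against 34.4, 57.0 and 36.2 in GM p68 shRNA cells and 33.6, 11.4 and 30.7 in GM vector cells. DM arrays lay above GM arrays of the same construct. The constructs overlapped in DM, whereas in GM the p68 shRNA arrays lay above the vector arrays with no overlap. From the fit, the DM over GM change was 0.73 ± 0.24 in p68 shRNA cells (adjusted p = 0.0271) and 1.45 ± 0.24 in vector cells (adjusted p = 0.000134). The p68 shRNA value lost its call without DM p68 shRNA replicate 1 (adjusted p = 0.076) or 2 (adjusted p = 0.0971) and without GM p68 shRNA replicate 2 (adjusted p = 0.0993) or 4 (adjusted p = 0.0897), and with no filter on low signal (adjusted p = 0.0555). That call was also lost with the replicate number as a block (adjusted p = 0.0682). The shRNA difference was -0.17 in DM (95% interval -0.68 to 0.33, adjusted p = 0.688) and 0.55 in GM (adjusted p = 0.203). The interaction was -0.72, which did not pass (adjusted p = 0.213).

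Casq2, the calsequestrin of cardiac and slow muscle that developing skeletal muscle also makes, was low in GM and high in DM. At 1422529_s_at it had 1624, 1678 and 1371 in DM p68 shRNA cells, against 1926, 2003 and 2250.2 in DM vector cells. In GM it had 14.3, 22.1 and 15.8 in p68 shRNA cells and 6.9, 16.4 and 8.1 in vector cells. The DM p68 shRNA arrays lay below the DM vector arrays, while in GM the constructs overlapped. The DM over GM change was 5.60 ± 0.15 in p68 shRNA cells (adjusted p = 2.34e-12) and 6.36 ± 0.15 in vector cells (adjusted p = 3.75e-13). With the shRNA the difference in DM was -0.40 (95% interval -0.73 to -0.07), which did not pass (adjusted p = 0.0896), except without GM vector replicate 3 (adjusted p = 0.0498) or with 50 added to the signal (adjusted p = 0.0229). In GM it was 0.36 (adjusted p = 0.197).

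The Casq2 interaction of -0.76 ± 0.22 passed narrowly (adjusted p = 0.0391). The call was lost when any of 9 of the 12 arrays was left out, with adjusted p = 0.0521 to 0.1. These were all 3 DM p68 shRNA arrays, DM vector replicates 2 and 3, GM p68 shRNA replicates 3 and 4, and GM vector replicates 1 and 4. It was also lost with quantile normalization (-0.58, adjusted p = 0.103), with no filter on low signal (adjusted p = 0.0585) and with no mean-variance trend (adjusted p = 0.0576). With the replicate number as a block, the call was lost as well (-0.74, adjusted p = 0.0567). Markers of cardiac muscle summed to 205 to 238 in DM p68 shRNA cells and 378 to 401 in DM vector cells over 6 genes, of which 3 were tested, and their part in this result was not tested. Of the tested ones, Myl2 averaged 105 in DM p68 shRNA cells and 253 in DM vector cells, Tnni3 36.4 and 54.9, and Nppb 28.3 and 48.5 in the same groups. Ryr2, the cardiac release channel, was not tested and averaged 9.47 in DM p68 shRNA cells and 9.95 in DM vector cells. The other untested genes, Nppa (29.7 and 9.89) and Myl7 (13.2 and 10.6), were higher in DM p68 shRNA cells than in DM vector cells.

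Pvalb, a calcium buffer of fast fibres and of some neurons, was higher with the shRNA in both media. At 1417653_at it had 182.3, 234 and 226 in DM p68 shRNA cells, against 136.8, 123.7 and 116.5 in DM vector cells. In GM it had 77.5, 74.9 and 65.4 in p68 shRNA cells, against 35.5, 39.4 and 24.5 in vector cells. The p68 shRNA arrays lay above the vector arrays in both media and the DM arrays above the GM arrays for both constructs, with no overlap in any of these. The mean was 214 ± 27.7 in DM p68 shRNA cells and 126 ± 10.3 in DM vector cells, and 72.6 ± 6.3 in GM p68 shRNA cells and 33.2 ± 7.7 in GM vector cells (SD, n = 3 each).

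Pvalb rose with the shRNA by 0.70 in DM (95% interval 0.37 to 1.03, adjusted p = 0.00589) and by 0.87 in GM (95% interval 0.54 to 1.20, adjusted p = 0.00406). It was the 1 member called in GM. Its DM over GM change was 1.38 ± 0.15 in p68 shRNA cells (adjusted p = 8e-06) and 1.56 ± 0.15 in vector cells (adjusted p = 9.55e-07). The difference of these changes was -0.18, with a 95% interval of -0.64 to 0.29 (adjusted p = 0.69). Snap25, a defining neuronal marker, averaged 0.72 in DM p68 shRNA cells, 1.84 in DM vector cells, 1.34 in GM p68 shRNA cells and 0.87 in GM vector cells, near 0 in all groups. The sum of 5 neuronal markers, of which 1 was tested, was 70.7 to 89.5, 64.1 to 136, 65.2 to 78.7 and 61.6 to 75.6 in the same groups, which overlapped.

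**Figure D3:**
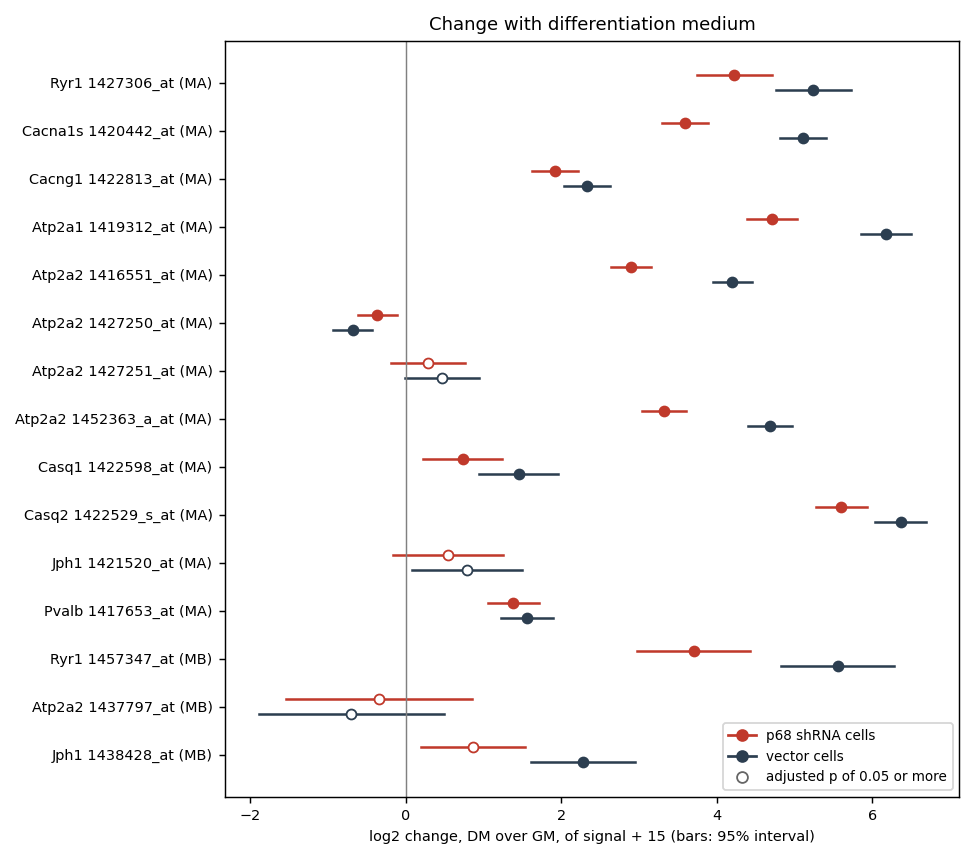
Log2 change of DM over GM for each tested member probe set. The horizontal axis is the log2 change of signal + 15, points are estimates in p68 shRNA cells (upper of each pair) and vector cells (lower), bars are unadjusted 95% intervals, and open points did not pass after adjustment. The p68 shRNA estimate is nearer to 0 than the vector estimate for every probe set shown, and 1427250_at of Atp2a2 is the called one below 0.

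The medium change in p68 shRNA cells was also set against that in vector cells as a share on the log2 scale, for the probe sets whose vector change passed and whose signals all exceeded the added 15. The share was 88.8% for Pvalb, 82.3% for Cacng1, 76.2% for Atp2a1, 71.0%, 69.0% and 53.7% at 1452363_a_at, 1416551_at and 1427250_at of Atp2a2, and 37.6% for Jph1 on MB. No such share is given for all probe sets, so these values do not show a trait of the members. On MA, 49.3% of all tested probe sets passed for the medium in vector cells and 33.9% in p68 shRNA cells. Choosing probe sets by a vector change that passed also favours low shares. The interaction did not pass for Pvalb (adjusted p = 0.69), Cacng1 (0.224), 1427250_at (0.271) or Jph1 on MB (0.287). At these 4 the medium changes were thus not shown to differ, and the p68 shRNA change of Jph1 did not itself pass (adjusted p = 0.167). Ryr1, Cacna1s, Casq1 and Casq2 had signals of 15 or less in 1 or more GM arrays, so that the added 15 would set such a share, and none is given. By the interaction test, 5 of the 12 MA members had a negative difference between the medium changes and none a positive one, where 4.48% and 5.48% of all tested probe sets did. The 5 were Cacna1s, Atp2a1, Casq2 and the Atp2a2 probe sets 1416551_at and 1452363_a_at, all of which rose in DM. For Atp2a1 and the Atp2a2 probe sets, the rise was thus smaller in p68 shRNA cells. The GM signals of Cacna1s lay far under the added 15, so its value mostly restates the DM difference. Those of Casq2 lay around 15, so the number added bears on its value too. The median interaction was -0.74 over the members and 0.01 over all. On MB none of 3 passed the limma test, where 0.389% of all did, and 2 had an unadjusted p under 0.05 (8.46% of all).

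**Figure D4:**
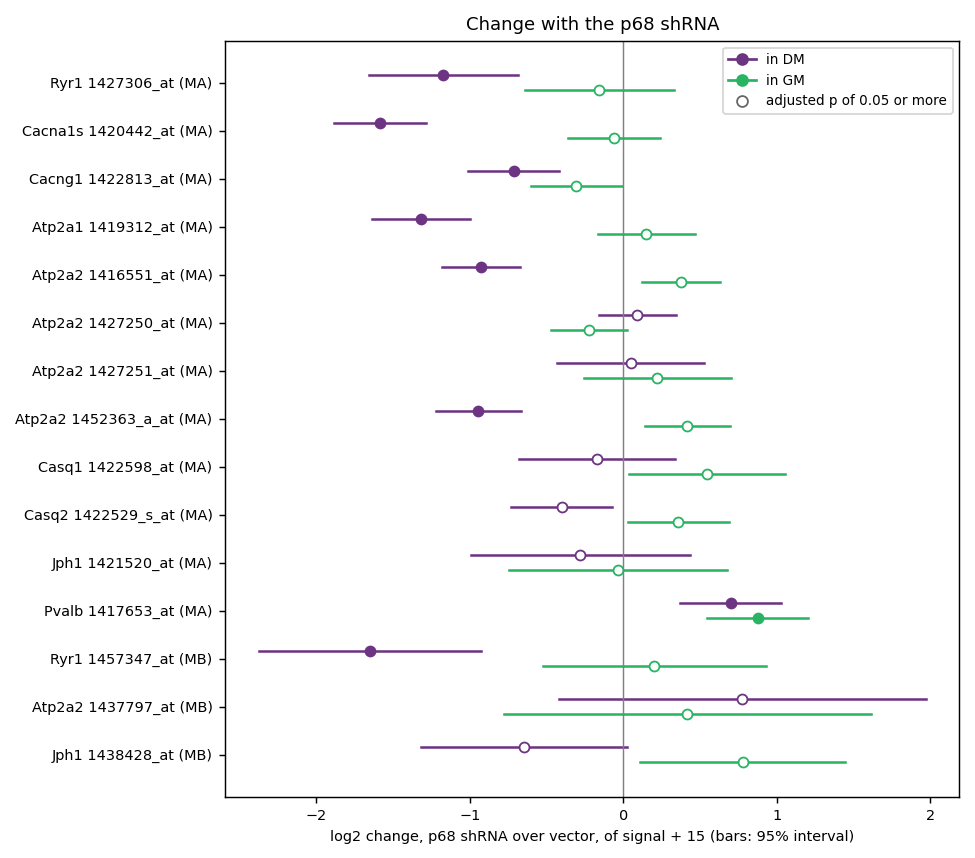
Log2 change of p68 shRNA over vector for each tested member probe set in DM and in GM. The horizontal axis is the log2 change of signal + 15, bars are unadjusted 95% intervals, and open points did not pass after adjustment. Cacna1s lies lowest of the MA probe sets in DM at -1.58, and Pvalb lies above 0 in both media at 0.70 and 0.87.

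Other genes of the pathway were counted with 1 MA probe set each, the tested one with the highest mean log2 signal. The shares over all tested MA probe sets, against which their counts are read, were 23.9% up and 25.4% down for DM over GM with the vector, and 10.7% up and 6.24% down for the shRNA in DM. Of 18 further genes of the voltage sensor, release channel and triad, 13 were tested. In vector cells 9 rose and 1 fell in DM (median 1.24, against 0.008 over all tested probe sets). Those with the largest change were Tmem38a (3.94) and Tmem38b (3.83), the TRIC cation channels of the store, Hrc (3.87), a calcium-binding protein inside it, and Cacnb1 (3.79), the beta subunit of the dihydropyridine receptor. The 1 that fell, Fkbp1a (-0.59), which binds the release channel, is outside the naming rule and was picked after its value was seen. That fall was lost without DM vector replicate 2 or GM vector replicate 3, where the count was 0. With the shRNA in DM, 2 fell and none rose at the probe sets counted (median -0.28): Cacnb1 by 1.11 (adjusted p = 0.000114) and Tmem38b by 0.65 (adjusted p = 0.00583). In GM, Tmem38b rose instead, by 0.70 (adjusted p = 0.00989). Asph, which encodes junctin among other forms, was flat at the probe set counted (1450058_at, 0.08 with the shRNA in DM) but rose with the shRNA in DM at 3 others, by 0.65 at 1420959_at (adjusted p = 0.0232), 0.69 at 1425275_at (adjusted p = 0.0373) and 1.06 at 1426015_s_at (adjusted p = 0.00857). With the medium in vector cells, Asph rose by 1.45 at 1425274_at and fell by 1.15 at 1426015_s_at.

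Of 12 genes of the T-tubule and of membrane excitability, 5 were tested. All 5 rose in DM in vector cells (median 2.05), among them Cav3 (5.14), the muscle caveolin, Dysf (2.31), a membrane repair protein, Bin1 (2.05), which shapes T-tubules, and Chrna1 (1.31), a subunit of the acetylcholine receptor. With the shRNA in DM, Cav3 fell by 0.99 (adjusted p = 0.000804) and Dysf by 0.64 (adjusted p = 0.0498). The Dysf call was lost without any of 9 arrays, namely the 3 DM p68 shRNA arrays, the 3 DM vector arrays, GM p68 shRNA replicate 2 and GM vector replicates 1 and 3, with adjusted p = 0.0525 to 0.201, so that the count of falling genes was then 1, except without DM vector replicate 1.

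Pump partners, store entry and other calcium stores showed no common direction. Of 20 such genes 9 were tested, and in vector cells 3 rose and 3 fell in DM (median -0.28). Orai1 (1.41) and Stim1 (1.21), the channel and the sensor of store-operated calcium entry, and Atp2a3 (1.38), the third SERCA gene, rose. Itpr3 (-1.87), an inositol trisphosphate receptor, Sri (-1.75), a calcium-binding modulator of the release channel, and Calr (-0.52), a calcium-binding chaperone, fell. With the shRNA in DM, Sri (0.67, adjusted p = 0.0016) and Itpr3 (0.64, adjusted p = 0.00493) rose and none fell (median 0.25). Stim1 and Calr stand outside the naming rule and were added after their values were seen.

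Of 17 genes of cytosolic calcium binding and signalling, 11 were tested. In vector cells 2 rose and 3 fell in DM (median -0.06), shares near those of all tested probe sets (23.9% and 25.4%), with Ppp3ca (0.92), a calcineurin catalytic subunit, the highest and Camk2g (-0.79), a calcium/calmodulin-dependent kinase subunit, the lowest. Ppp3cb (-0.74 at the probe set counted, 1433835_at) also fell there but rose by 1.08 at 1427468_at. Nfatc1 (-0.69) lost its call without DM vector replicate 1 (adjusted p = 0.0536) or GM vector replicate 1 (adjusted p = 0.0528). With the shRNA in DM, Camk2g (0.84, adjusted p = 0.000542) and S100a1 (0.53, adjusted p = 0.00728), a calcium-binding protein, rose and none fell at the probe sets counted (median 0.13). Phka1, a subunit of phosphorylase kinase, fell by 1.04 at 1422743_at, which was not the one counted (adjusted p = 0.00693), and was picked after its value was seen.

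**Figure D5:**
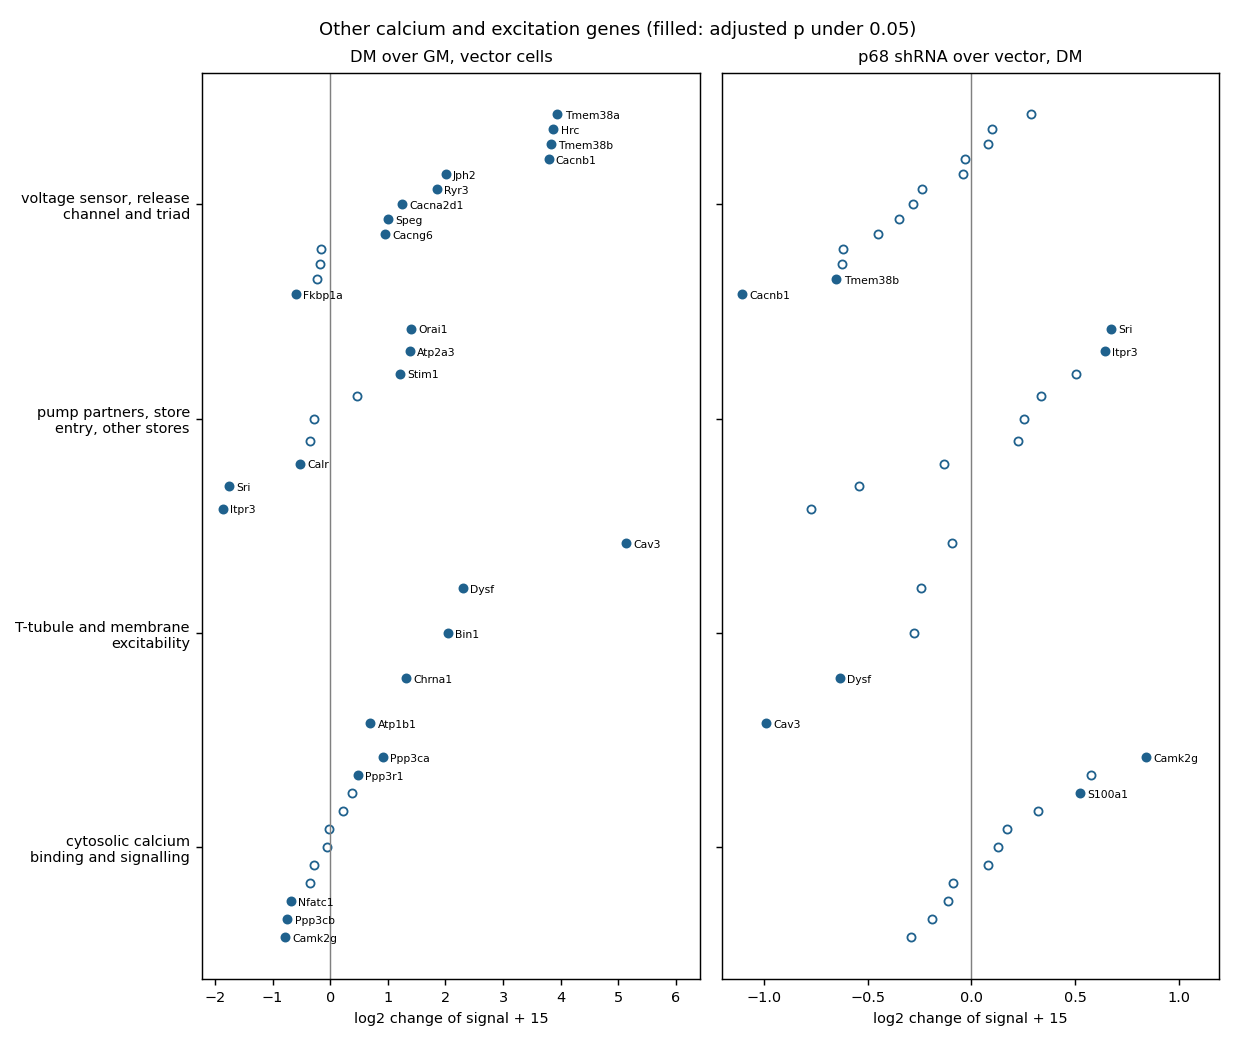
Log2 changes of other calcium and excitation genes on MA, 1 probe set per gene. The left panel is DM over GM in vector cells and the right panel p68 shRNA over vector in DM. Both horizontal axes are log2 changes of signal + 15, on different ranges, genes are grouped by list and ordered by value, and filled points with names passed. Cav3 is highest on the left at 5.14, and Cacnb1 is lowest on the right at -1.11.

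The genes whose pattern over the 12 arrays of a design was most like that of Ryr1 and of Pvalb were taken as a description, since arrays of 1 group share their medium and construct. For Ryr1 at 1457347_at on MB these were Mybpc1 (Pearson r = 0.989), Plekhh1 (0.988), Dhrs7c (0.987), Afap1l1 (0.986) and Ablim3 (0.985). The other members tested on MB were Jph1, with r = 0.869 (rank 316 among the tested probe sets with 1 symbol), and Atp2a2 at 1437797_at, with r = -0.403. For Pvalb on MA they were Hey1 (0.985), Kdm5b (0.982), Lmcd1 (0.972), Tpd52l2 (0.969) and Lbp (0.966). Of the other members, Casq2 was most like Pvalb, with r = 0.869 (rank 336).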

How the data were processed

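Total RNA of C2C12 cells was biotin-labelled and read on 24 arrays, 12 for each of the designs MA and MB. The values the authors deposited are linear intensities, 1 for each probe set on each array, computed with MAS5 per the submitters' processing notes. Which MAS5 version and settings were used is not given in the sources. The deposited intensities were already scaled: after trimming 2% at either end, the mean was 150.1 on every MA array and 150.0 on every MB array. Signals under 15 made up 27.2 to 31.4% of an MA array and 9.03 to 19.9% of an MB array. Sample titles gave the groups and replicate numbers.

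Probe sets were named through the platform annotation, with symbols compared with RefSeq (GRCm38.p6), which changed 0 of them. Of 22690 MA probe sets, 20380 had 1 symbol, 691 several and 1555 none. Of 22575 MB probe sets, 14661 had 1 symbol, 245 several and 7605 none. On each design 64 were controls and were left out, and no member lay in a probe set with several symbols.

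Signals were analysed as log2(signal + 15), which understates changes of weak probe sets. Testing required a signal of 30 or more in at least 3 of 12 arrays, which left 14367 on MA and 19303 on MB. A limma 3.58.1 model (R 4.3.3) with 4 group means used the 12 arrays of a design, with eBayes and a mean-variance trend. The p-values were adjusted by Benjamini-Hochberg over all tested probe sets per design and contrast, with a threshold of 0.05. The designs were scaled and tested apart. The steps were tested on simulated data. The members, the gene and marker lists and the tests were chosen with earlier results of these data known. All members are named. From each other list at most 4 genes per contrast are named, by the size of a change that passed, and also genes whose probe sets passed in opposite directions. Ratios of Atp2a2 probe sets were tested with exact permutations in Python 3.11.15 (numpy 2.4.6, pandas 2.3.3). The alternatives tried were pseudocounts of 5 and 50, no filter and a filter at 60, quantile normalization, no trend, only the groups compared, a replicate block and leaving out each array.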

Additional observations from a re-analysis of the deposited data

Results flagged for a closer look

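By the interaction test, 5 of 12 tested member probe sets and 6 other calcium genes on MA had a value that passed. Of all tested probe sets, 9.95% passed. The 6 genes included 2 of 13 tested for the voltage sensor, release channel and triad. A further 1 of 9 was a pump partner or store gene, and 1 of 5 a T-tubule gene. Of 11 cytosolic genes, 1 had a negative and 1 a positive value. These small list counts were not tested against the share of all probe sets. The value is the DM over GM log2 change in p68 shRNA cells minus that in vector cells. It was -1.52 for Cacna1s (1420442_at), -1.47 for Atp2a1 (1419312_at), -1.30 and -1.36 for the Atp2a2 probe sets 1416551_at and 1452363_a_at, and -0.76 for Casq2 (1422529_s_at). Cacna1s, Atp2a1 and both Atp2a2 probe sets kept their calls under every alternative tried, and Casq2 did not.

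Among the other calcium genes, Tmem38b had -1.35 (adjusted p = 0.000841), with a fall in DM and a rise in GM with the shRNA. Cacnb1 had -0.86 (adjusted p = 0.0165) and kept its call without any single array but not with a pseudocount of 5 (adjusted p = 0.073). Cav3 had -0.82 (adjusted p = 0.0395), Ppp3ca had -0.63 (adjusted p = 0.0269), Itpr3 had 0.69 (adjusted p = 0.0388) and Mylk2, a myosin light chain kinase, had 1.03 (adjusted p = 0.0303). At probe sets that were not the ones counted, Phka1 had -1.57 (adjusted p = 0.00798), Atp1b1 -0.88 (adjusted p = 0.0499) and Camk2g 0.67 (adjusted p = 0.0302).

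The calls of Cav3, Itpr3, Mylk2 and Ppp3ca were easily lost. The probe sets that were not counted have no leave-one-out values here. Leaving out 1 array ended that of Cav3 for 9 arrays (DM p68 shRNA 1 and 2, DM vector 1 and 3, GM p68 shRNA 2, 3 and 4, GM vector 1 and 4), with adjusted p = 0.0563 to 0.0976. It ended that of Itpr3 for 9 arrays (DM p68 shRNA 2 and 3, DM vector 1 and 2, GM p68 shRNA 3 and 4, GM vector 1, 3 and 4), with adjusted p = 0.0565 to 0.0939. It ended that of Mylk2 for 9 arrays (DM p68 shRNA 1, 2 and 3, DM vector 1 and 2, GM p68 shRNA 2 and 4, GM vector 1 and 4), with adjusted p = 0.0545 to 0.0841. It ended that of Ppp3ca for 7 arrays (DM p68 shRNA 2 and 3, DM vector 2, GM p68 shRNA 3 and 4, GM vector 3 and 4), with adjusted p = 0.0527 to 0.0705.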

How the results depend on the processing

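Of 37 called member results, 33 kept their direction and call under all alternatives and 0 reversed. The exceptions were Casq1 and Atp2a2 1427250_at (DM over GM, p68 shRNA), the Casq2 interaction and Ryr1 on MB (shRNA in DM). For the last, the count of called MB members was 0 with a pseudocount of 5 or no trend and 0 to 1 with 1 array left out. The MB interaction count was 1 with a pseudocount of 50 and 0 to 1 with 1 array left out. The MA count for the shRNA in GM was 1 to 3 with 1 array left out. On MA, residuals of same-numbered arrays correlated at 0.166, 0.293, -0.047, 0.063, 0.278, -0.139, 0.128, 0.143 and 0.093. Those of differently numbered MA arrays correlated at -0.277 to 0.195. On MB the same-numbered values ran from -0.039 to 0.028 and the differently numbered ones from -0.064 to 0.074. Whether replicate numbers pair the arrays was not tested. With the replicate block, the MA counts were 8 (DM over GM, p68 shRNA), 11 (DM over GM, vector), 7 (shRNA, DM), 1 (shRNA, GM) and 4 (interaction), and the MB counts stayed as they were. It ended the calls of Casq1 (adjusted p = 0.0682) and Atp2a2 1427250_at (adjusted p = 0.055) for DM over GM in p68 shRNA cells and of the Casq2 interaction (-0.74, adjusted p = 0.0567). The Atp2a2 ratio differences between DM and GM under the block were 3.99, 0.80 and 4.39. Only uncalled values changed sign. Under a changed setting these were Atp2a2 1427251_at (shRNA, DM: -0.029 with quantile normalization), Jph1 on MA (shRNA, GM: 0.15 with the block) and Pvalb (interaction: 0.02 with a pseudocount of 50). With 1 array left out, the shRNA effect in DM ran from -0.033 to 0.166 at Atp2a2 1427250_at and from -0.13 to 0.16 at 1427251_at. That in GM ran from -0.107 to 0.004 for Cacna1s, -0.40 to 0.26 for Jph1 on MA, -0.38 to 0.17 for Ryr1 on MA and -0.28 to 0.57 on MB. The interaction ran from -0.54 to 0.13 for Jph1 on MA and from -0.14 to 0.96 for Atp2a2 1437797_at, whose DM over GM change in p68 shRNA cells ran from -0.84 to 0.26. The causes were not tested. Weak signals, under or near 15, and the wider spread on MB limit what could be called.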
